A study of Sus scrofa with 20 samples.

Results

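The genes described here are 8 that are known for pluripotency or self-renewal, namely NANOG, POU5F1, SALL4, KLF4, KLF5, MYC, BMI1 and LIN28A. They were looked up by name among the 25764 genes of the deposited table, and 5 of the 8 had a row: NANOG, SALL4, KLF5, MYC and LIN28A. No row goes by the name POU5F1, KLF4 or BMI1, and these 3 were not analysed here. The genes were picked by name and not by any measured value.

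The RNA came from pigs, in 20 poly(A) libraries. pBTSCs, the porcine biliary tree stem cells, were prepared from neonatal piglet tissue that the labels give as gallbladder (libraries S2, S7, S11, S15 and S20, n = 5), and the study lists S2, S7 and S11 as piglets of an H2B-GFP line, in which histone H2B joined to green fluorescent protein is made from the beta-actin locus in all tissues, and S15 and S20 as wild type. The other 15 libraries are pig liver cells sorted by surface antigens: CD45-/EpCAM+ (S4, S9, S13 and S19, n = 4), CD45-/EpCAM- (S5 and S14, n = 2), CD45+ (S3, S8, S12, S18 and S23, n = 5), CD31+ (S16 and S21, n = 2) and CD146+ (S17 and S22, n = 2). CD45 marks leukocytes, EpCAM epithelial cells, and CD31 and CD146 endothelial cells. The study defines biliary tree stem cells as CD45-/EpCAM+ cells. Its methods describe immunoselected stem/progenitor cells kept for some hours in serum-free medium, where they formed organoids together with early mesenchymal cells. Which libraries went through this step is not stated, and its part in the differences below was not tested. No treatment is given for any group, and neither the age, the line nor the donor of each liver library is stated, so liver libraries were treated as separate samples and p-values measure only the spread between libraries.

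NANOG, POU5F1 (OCT4) and SOX2 form the core transcription factor circuit of pluripotent stem cells, and SALL4 is a zinc finger factor that sustains it. KLF4, KLF5 and MYC act beside that circuit and also in ordinary tissues, where KLF5 is known from dividing epithelium and smooth muscle and MYC drives growth and division in most cell types. LIN28A is an RNA-binding protein that blocks the maturation of let-7 microRNAs, and BMI1 is a Polycomb protein that supports the self-renewal of adult stem cells. Adult tissue stem cells commonly lack the core circuit while they keep factors such as KLF5, MYC and BMI1.

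Depth decides what can be said about the rare transcripts. An estimated 21200000 to 77800000 reads stood behind 17 of the libraries, and 455000 to 1570000 behind the other 3, which were S15 of the pBTSCs, S13 of CD45-/EpCAM+ and S22 of CD146+. A single read was worth 12.6 normalized counts in S15, 25.7 in S13 and 52.1 in S22, while 3 reads, below which a level is treated here as no different from 0, were worth at most 4.29 in the other 17. These floors cover counting error only. The study lists RNA integrity scores for the pBTSC samples only, lowest in S7 and S11, highest in S20 and missing for S15. The part of RNA quality in the levels below was not tested. The sorting labels were checked against marker genes. The summed hepatocyte markers stood between 961646 and 2732963 normalized counts in the 15 liver libraries, whichever antigen they were sorted for, and between 27144 and 72644 in pBTSCs. CD45+ libraries had 11513 to 33582 for the leukocyte markers, which overlapped the 12673 to 32417 of CD45-/EpCAM+. The highest leukocyte sums, 33752 and 46845, were those of the 2 CD45-/EpCAM- libraries, against their label. The liver fractions are therefore called here by their labels only. In bulk samples, fewer cells of a type and less RNA per cell cannot be told apart. The storage number in a library's name also matters, because both CD45-/EpCAM- libraries are numbered up to S14 and all CD31+ and CD146+ libraries from S16 up, so that these groups and the storage number cannot be told apart. The division between S14 and S15 was chosen with results of these data known, and for pBTSCs it is also the division between H2B-GFP and wild-type piglets, so that line and storage range cannot be told apart.

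KLF5 was the member that differed between pBTSCs and liver. Its level was 2980 normalized counts in S2, 1643 in S7, 1687 in S11, 1934 in S15 and 769 in S20. CD45-/EpCAM+ liver cells had 681, 807, 463 and 455 in S4, S9, S13 and S19. Of the pBTSC libraries 4 lay above every liver library, and S20 fell within the upper end of the liver values. CD45+ cells had 740, 821, 399, 490 and 414 in S3, S8, S12, S18 and S23. CD45-/EpCAM- cells stood at 555 and 308, CD31+ cells at 515 and 346, and CD146+ cells at 453 and 209. KLF5 was detected above 3 reads in all 20 libraries, but its lowest value, in S22, rested on 4 reads and that of S13 on 18.

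In order of their means, KLF5 stood at 1803 ± 792 normalized counts in pBTSCs (SD, n = 5), 602 ± 173 in CD45-/EpCAM+ (SD, n = 4), 573 ± 195 in CD45+ (SD, n = 5), 431 ± 175 in CD45-/EpCAM- (SD, n = 2), 430 ± 119 in CD31+ (SD, n = 2) and 331 ± 172 in CD146+ (SD, n = 2). No difference among the 5 liver groups was found (limma F-test, adjusted p = 0.520). For the group comparisons limma was run on the log2 of the normalized count plus 1 for 15576 genes, and a difference was called where it was above 2-fold in either direction with a Benjamini-Hochberg adjusted p under 0.05. Against CD45-/EpCAM+ the log2 fold change of KLF5 was 1.5 (standard error 0.36, limma adjusted p = 0.0030). It was 1.59 (standard error 0.34, limma adjusted p = 0.0014) against CD45+ and 2.0 (standard error 0.44, limma adjusted p = 0.0014) against CD45-/EpCAM-. Against CD31+ it was 1.97 (standard error 0.44, limma adjusted p = 0.0042), and against CD146+ 2.42 (standard error 0.44, limma adjusted p = 6.7e-04). KLF5 was thus called higher in pBTSCs in all 5 comparisons, which share the pBTSC libraries.

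2 of the KLF5 calls rest on 1 library. Without S21, the KLF5 difference from CD31+ was 1.68 (limma adjusted p = 0.116), and without S22, that from CD146+ was 1.87 (limma adjusted p = 0.0526). By the exact permutation test, two-sided, KLF5 had p = 0.0317 against CD45-/EpCAM+ and p = 0.0159 against CD45+, both with adjusted p = 0.127 over the 8 tests of members. KLF5 was higher in pBTSCs within both storage ranges: up to S14 the 3 pBTSC libraries lay between 1643 and 2980 and the 8 liver libraries between 308 and 821, and from S15 up the 2 pBTSC libraries lay at 769 and 1934 and the 7 liver libraries between 209 and 515. Markers of other cells moved in the same direction. Summed mesenchyme markers ran from 453117 to 1725544 normalized counts in pBTSCs against 45255 to 210877 in the liver libraries, summed smooth muscle markers from 88434 to 140222 against 19126 to 76036, and nerve and glia markers from 4940 to 17353 against 737 to 2252, with none of the 3 ranges overlapping. Biliary epithelium markers, which include those of the cells named in the label, ran from 26650 to 82158 against 14109 to 51811 and overlapped. Taken singly, 1 of the 9 tested was called higher and 3 lower against CD45-/EpCAM+ (median log2 fold change -0.51). Against CD45+ the counts were 1 and 4, against CD45-/EpCAM- 2 and 1, and against both CD31+ and CD146+ 1 and 2. The part of these cell types in the KLF5 level was not tested.

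**Figure D1:**
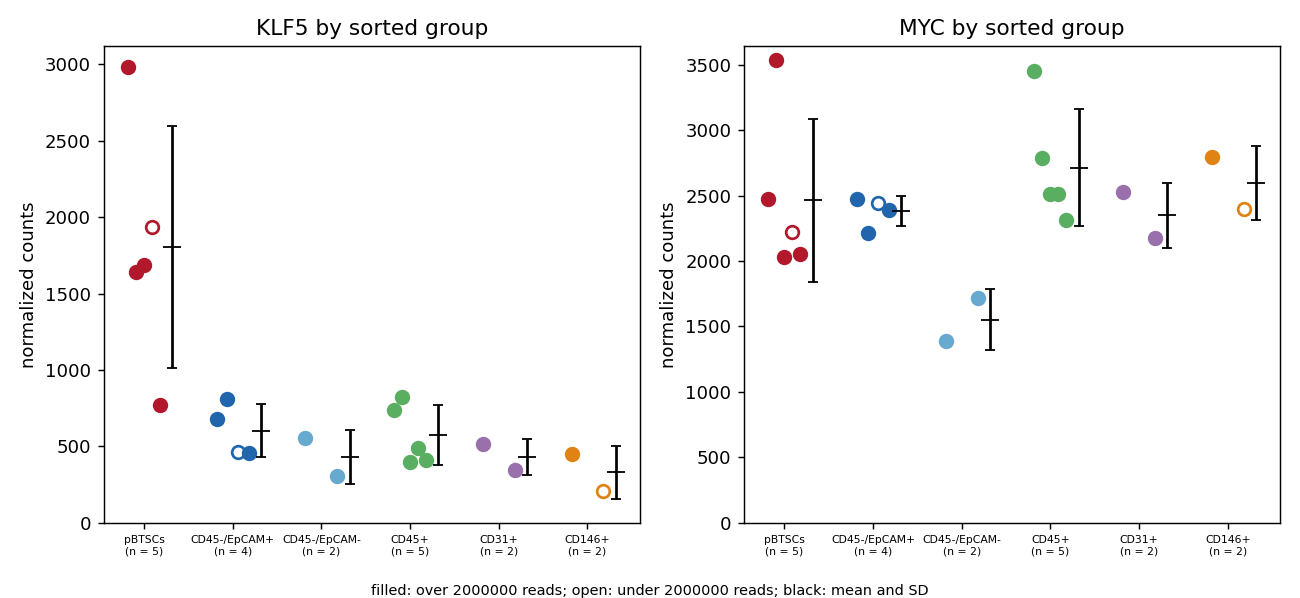
Normalized counts of KLF5 (left) and MYC (right) in each library, by sorted group on the x axis, with a point per library (open under 2000000 reads) and black marks for the mean and SD. For KLF5, 4 of the 5 pBTSC libraries lie above every liver library and S20 at 769 does not, while for MYC both CD45-/EpCAM- libraries lie below all others.

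Genes called higher in pBTSCs made up 14.8% of all genes tested against CD45-/EpCAM+, 20% against CD45-/EpCAM-, 11% against CD45+, 6.73% against CD31+ and 14.5% against CD146+. Genes called lower made up 10.3%, 16.6%, 9.54%, 7.62% and 7.75% in the same order, and 4.98% differed among the 5 liver groups. Of the 4 members that could be tested, 1 was called higher and 0 lower in each comparison, and 0 of the 4 differed among the liver groups (limma, 2 at an unadjusted p under 0.05). A share taken over 4 genes is too coarse to be read against these backgrounds. The same shares are the background for the list counts below that come from this fit. They are not the background for counts after rescaling or without the libraries under 2000000 reads. Of the called genes, 2302 of 3905 were higher in pBTSCs against CD45-/EpCAM+, and 3308 of 4545 once all libraries had been scaled to a common total. The same rescaling took them from 3114 of 5698 to 4643 of 6149 against CD45-/EpCAM-, from 1716 of 3202 to 2434 of 3629 against CD45+, from 1049 of 2236 to 1624 of 2622 against CD31+, and from 2255 of 3462 to 3150 of 4133 against CD146+. The median log2 fold change of all genes was 0.08, 0.04, 0.07, 0.09 and 0.18 against CD45-/EpCAM+, CD45-/EpCAM-, CD45+, CD31+ and CD146+, and 0.39, 0.51, 0.32, 0.38 and 0.46 after that rescaling.

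MYC was abundant everywhere and nearly level. pBTSCs had 2472, 3534, 2034, 2225 and 2058 normalized counts in S2, S7, S11, S15 and S20, and CD45-/EpCAM+ cells 2474, 2218, 2443 and 2392 in S4, S9, S13 and S19. The CD45-/EpCAM- cells had 1385 in S5 and 1716 in S14, the lowest MYC levels of the series. CD45+ cells ran from 2311 to 3456 with a median of 2512, CD31+ cells had 2526 and 2174, and CD146+ cells 2796 and 2399. In order of their means, MYC stood at 2715 ± 447 in CD45+, 2597 ± 281 in CD146+, 2465 ± 623 in pBTSCs, 2382 ± 114 in CD45-/EpCAM+, 2350 ± 248 in CD31+ and 1551 ± 234 in CD45-/EpCAM- (SD, n as above). The first 5 of these means differed by less than the spread among the pBTSC libraries.

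Against CD45-/EpCAM+ the log2 fold change of MYC was 0.02, with a 95% interval from -0.31 to 0.35 (limma adjusted p = 0.940). The interval ran from -0.47 to 0.15 against CD45+, from -0.37 to 0.45 against CD31+ and from -0.51 to 0.31 against CD146+, so a difference above 2-fold in either direction lay outside all 4 intervals. Against CD45-/EpCAM- MYC was higher in pBTSCs by 0.64 (95% interval 0.23 to 1.05, limma adjusted p = 0.0113), which is under the fold threshold and was not called. After scaling to a common total, that difference was 1.12 (limma adjusted p = 7.5e-04) and was called. Among the 5 liver groups MYC had an adjusted p of 0.0966 (limma F-test), or 0.0449 without S7.

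Most of the MYC network, like most genes tested, was not called either. Against CD45-/EpCAM+, 14.8% of all genes were called higher and 10.3% lower. Of 17 listed partners and targets tested, 0 were called higher and 1 lower against CD45-/EpCAM+ (limma, median log2 fold change 0.14), and 1 higher and 1 lower against CD45-/EpCAM-. The gene that fell was MLXIPL, a glucose-responsive regulator of liver fat synthesis, with a log2 fold change of -4.49 (limma adjusted p = 2.3e-07) against CD45-/EpCAM+, at 26.8 to 108 normalized counts in pBTSCs and 691 to 2620 in CD45-/EpCAM+. MAX, the binding partner of MYC, was at -0.15 and MYCN, the neural family member, at -0.38, neither called. Against CD146+ MYCN was called higher by 3.18 (limma adjusted p = 0.0373), where shallow S22 lists it at 0, and without the 3 shallow libraries it stood at -0.39 (limma adjusted p = 0.738). Of 10 proliferation genes, which include MKI67 of dividing nuclei, 0 were called in either direction against CD45-/EpCAM+ (limma), and 5 were lower in pBTSCs than in CD45-/EpCAM- cells. After scaling to a common total 1 of the 10 was lower. MKI67 fell by 2.03 there (limma adjusted p = 0.0093), or after that scaling by 1.55 (limma adjusted p = 0.0568), which was not called, and the summed erythroid markers were 194746 and 886473 normalized counts in those 2 liver libraries against at most 129067 in the pBTSCs. The part of erythroid cells in these values was not tested.

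Most of the other KLF family genes, like most genes tested, were not called. Against CD45-/EpCAM+, 1 of 13 tested family members was called higher and 1 lower, against 14.8% and 10.3% of all genes. A share over 13 genes is too coarse to be read against these. Their median log2 fold change was 0.52 against 0.08 for all genes. KLF8 was higher by 3.46 (limma adjusted p = 0.0048), at 69.5 to 110 normalized counts in pBTSCs and 0 to 22.9 in CD45-/EpCAM+, where the 0 is that of shallow S13, and without the 3 shallow libraries the difference was 2.44 (limma adjusted p = 2.7e-04). KLF15, a regulator of liver glucose and amino acid metabolism, was lower by 2.61 on the log2 scale (limma log2 fold change -2.61, adjusted p = 5.2e-05). KLF15 was called lower in all 5 comparisons and stood at 66.3 to 178 normalized counts in pBTSCs and 283 to 1154 in CD45-/EpCAM+. KLF2, a flow-responsive factor of endothelium, was at 0.98 (limma adjusted p = 3.7e-04), just under the fold threshold, and KLF6 at -0.08 (limma adjusted p = 0.788). Against CD45-/EpCAM- cells 5 were called higher and 2 lower, the lower being KLF15 and KLF1, the master factor of red cell genes (log2 fold change -6.06, limma adjusted p = 0.015). Without the 3 shallow libraries 2 were called higher against CD45-/EpCAM+ and 0 against CD146+, where 1 had been. After scaling to a common total 4 were called higher and 1 lower against CD45-/EpCAM+, and 9 and 2 against CD45-/EpCAM-. With that scaling 3308 and 4643 of all 15621 genes were called higher in these 2 comparisons.

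**Figure D2:**
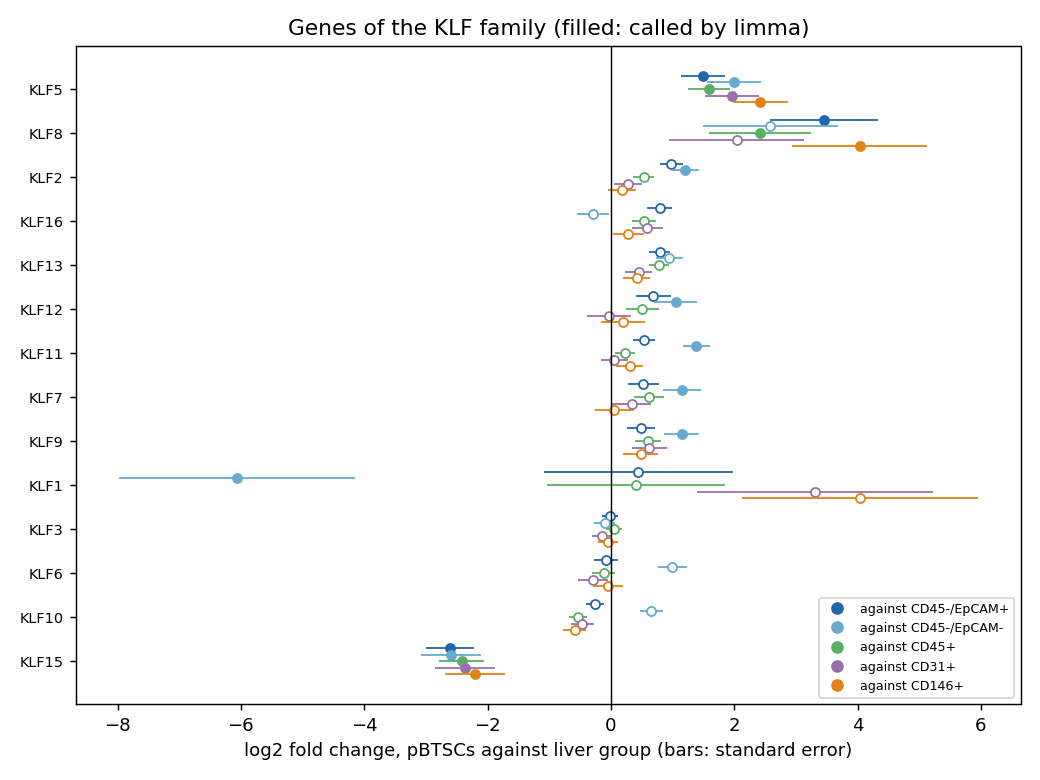
Log2 fold change of KLF family genes in pBTSCs against each of the 5 liver groups (x axis), with standard errors as bars and filled points for genes called by limma. KLF5 is filled and to the right of 0 in all 5 comparisons and KLF15 filled and to the left in all 5, while KLF1 is at -6.06 against CD45-/EpCAM-.

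SALL4 was rare in all cells. Its level was 2.72, 9.55, 8.26, 12.6 and 10.5 normalized counts in pBTSC libraries S2, S7, S11, S15 and S20, which is 12, 37, 13, 1 and 22 reads. CD45-/EpCAM+ cells had 18.5, 32.1, 25.7 and 2.82 in S4, S9, S13 and S19, or 33, 57, 1 and 6 reads. The single reads in S15 and S13 make those values uninformative. CD45-/EpCAM- cells had 34.4 in S5 and 12.8 in S14. CD45+ cells had 24.7, 39.3, 8.67, 2.16 and 4.06 in S3, S8, S12, S18 and S23, while CD31+ cells had 3.76 and 3.81 and CD146+ cells 3.34 and 0. SALL4 was above 3 reads in 16 of 20 libraries, and its 365 reads over all libraries are few beside the 35076 of KLF5, a comparison that is not corrected for gene length.

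Within the liver, SALL4 divided the libraries by storage number. Among the deeper libraries, the 7 liver libraries up to S14 had 8.67 to 39.3 normalized counts of SALL4. The 6 from S15 up had 2.16 to 4.06, with no overlap. The 1 read of S13 and the 0 of S22 cannot place those libraries in either range. CD45+ and CD45-/EpCAM+ each hold libraries of both ranges, and among their deeper libraries every one up to S14 was above every later one. The pBTSC libraries ran from 2.72 to 9.55 up to S14, mostly below the liver. From S15 up S20 stood at 10.5, above the deeper liver libraries, and the 12.6 of S15 is 1 read. AFP, the fetal liver albumin, was divided in the same way, with 65022 to 176993 normalized counts in the liver libraries up to S14 and 914 to 2034 in the later ones. Its part in the SALL4 values was not tested, and what the storage number stands for in the liver libraries is not stated.

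By limma, SALL4 was not called in any comparison. Its log2 fold change was -0.84 against CD45-/EpCAM+ (95% interval -2.52 to 0.83, limma adjusted p = 0.427), -0.30 against CD45+ (-1.88 to 1.28, limma adjusted p = 0.805), -1.31 against CD45-/EpCAM- (-3.40 to 0.78, limma adjusted p = 0.286), 0.90 against CD31+ (-1.19 to 2.99, limma adjusted p = 0.631) and 2.10 against CD146+ (0.01 to 4.19, limma adjusted p = 0.127). A 2-fold difference lies inside each of the 5 intervals, so differences of that size could not be told from none. In order of their means SALL4 stood at 23.6 ± 15.2 in CD45-/EpCAM-, 19.8 ± 12.6 in CD45-/EpCAM+, 15.8 ± 15.8 in CD45+, 8.73 ± 3.70 in pBTSCs, 3.79 ± 0.038 in CD31+ and 1.67 ± 2.36 in CD146+ (SD, n as above). Neighbours in that order overlapped except CD31+ and CD146+, with 2 libraries each. Among the 5 liver groups its adjusted p was 0.185 (limma F-test), and 0.795 with the storage range as a covariate. Against CD146+, 0.1 in place of 1 as the added constant gave 3.75 (limma adjusted p = 0.0469).

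LIN28A was listed at 0 in all 20 libraries. In the 17 deeper libraries this allows at most 3 reads each, or 0.681 to 4.29 normalized counts, and in S15, S13 and S22 at most 37.7, 77.1 and 156. No difference between groups can be measured for LIN28A.

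**Figure D3:**
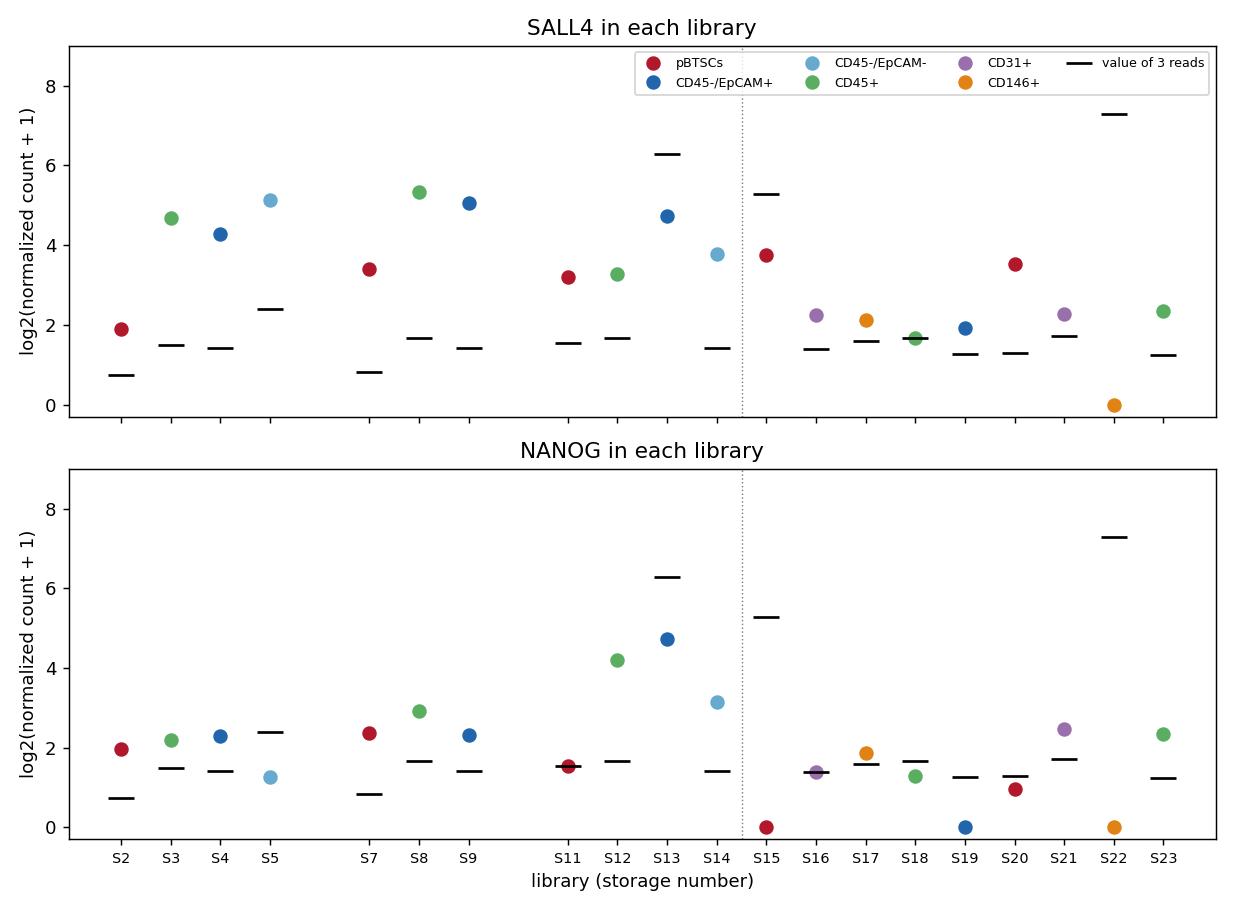
SALL4 (top) and NANOG (bottom) in each library as log2(normalized count + 1), with libraries on the x axis in order of storage number, colours for sorted groups and black dashes for the value of 3 reads in that library, and a dotted line between S14 and S15. The liver points for SALL4 lie between 8.67 and 39.3 normalized counts on the left and 0 and 4.06 on the right. Of these, S13 rests on 1 read and S22 on 0. The highest NANOG point, S13, lies below its dash.

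NANOG was near the floor throughout. pBTSC libraries S2, S7, S11, S15 and S20 had 13, 16, 3, 0 and 2 reads of NANOG, or 2.94, 4.14, 1.92, 0 and 0.961 normalized counts. CD45-/EpCAM+ libraries S4, S9, S13 and S19 had 7, 7, 1 and 0 reads. Because the S13 library is shallow, its 1 read stands at 25.7 normalized counts, the highest NANOG value of the series. CD45+ cells had 3.61, 6.56, 17.3, 1.44 and 4.06 normalized counts in S3, S8, S12, S18 and S23. The 24 reads in S12 were the most in any library. CD45-/EpCAM- cells had 1.42 and 7.80, CD31+ cells 1.61 and 4.56, and CD146+ cells 2.67 and 0. In total 127 reads of NANOG were seen and 11 of 20 libraries were above 3 reads, 2 of them pBTSC libraries. The RefSeq table for the pig lists 2 loci named NANOG while the deposited values hold 1 row of that name, so the reads may be shared with a near-identical copy and the level is uncertain.

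NANOG was not called against any group. Its log2 fold change in pBTSCs was -0.97 against CD45-/EpCAM+ (95% interval -2.75 to 0.82, limma adjusted p = 0.390) and -1.22 against CD45+ (95% interval -2.90 to 0.47, limma adjusted p = 0.263). It entered the fit through only S12 and S13, the 2 libraries that reached 10 normalized counts. In order of their means NANOG stood at 8.40 ± 11.7 in CD45-/EpCAM+, 6.59 ± 6.25 in CD45+, 4.61 ± 4.51 in CD45-/EpCAM-, 3.09 ± 2.09 in CD31+, 1.99 ± 1.62 in pBTSCs and 1.33 ± 1.89 in CD146+ (SD, n as above), and no neighbours differed beyond their spread. The first place rests on the 1 read of S13: without the 3 shallow libraries the mean of NANOG in CD45-/EpCAM+ was 2.63 ± 2.27 (SD, n = 3) and in pBTSCs 2.49 ± 1.36 (SD, n = 4), and the difference between their log2 means turned from -0.97 to 0.18. The exact permutation test, two-sided, gave p = 0.397 against CD45-/EpCAM+ and p = 0.103 against CD45+ for NANOG, with adjusted p = 0.529 and 0.275 over the 8 tests of members. For SALL4 the exact permutation test gave p = 0.286 and 0.698, and for MYC the exact permutation p was 1 and 0.397. The smallest p it allows is 0.0159 with 5 libraries against 4, and 0.00794 with 5 against 5.

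Among the wider pluripotency genes tested, SOX2 differed most. SOX2, the partner of OCT4 in the core circuit, stood at 25.1 to 47.7 normalized counts in pBTSCs (mean 39.0 ± 9.05, SD, n = 5) and at 0 to 3.76 in the liver libraries. SOX2 entered the fit through its pBTSC libraries only, since no liver library reached the level required for testing. The p-values do not take this selection into account. SOX2 was called higher in all 5 comparisons, with log2 fold changes of 4.10 (limma adjusted p = 2.1e-05) against CD45-/EpCAM+ and 3.88 (limma adjusted p = 2.1e-05) against CD45+. In S15 its 25.1 normalized counts are 2 reads, and the 0 of S13 and of S22 allows up to 77.1 and 156, so the absence of overlap holds for the 17 deeper libraries. SOX2 is also a gene of neural and glial cells, whose summed markers did not overlap between pBTSCs and liver as given above, and their part in its level was not tested. Of the 24 genes listed for the core network, 19 had a row and 7 could be tested, of which 3 were called higher (SOX2, TBX3 and TERT) and 1 lower (NR5A2) against CD45-/EpCAM+. Over the 7 the median log2 fold change was 0.43. Against CD45-/EpCAM-, CD45+ and CD146+ 2 of the 7 were called higher and 1 lower. Against CD31+ 1 was called higher, SOX2, and 1 lower, so TBX3 and TERT were not called there. TBX3, a factor of stem cells and of liver bud growth, ran from 996 to 1169 normalized counts in pBTSCs and 209 to 591 in CD45-/EpCAM+ (log2 fold change 1.74, limma adjusted p = 0.0023). TERT, the catalytic subunit of telomerase, ran from 12.6 to 53.7 and from 0 to 12.9 (log2 fold change 2.25, limma adjusted p = 0.040). It had 708 reads over all libraries and was above 3 reads in 16 of 20. Shallow S15 and S13 tell little at these levels, since 1 read is worth 12.6 and 25.7 there. NR5A2, a nuclear receptor of stem cells and of adult liver, was lower by 1.77 on the log2 scale (log2 fold change -1.77, limma adjusted p = 8.8e-08). Of the 12 genes with a row that could not be tested, 9 were above 3 reads in no library and 3 of these (TDGF1, PRDM14 and OTX2) were at 0 in all 20. They were named after their values were seen. Of 5 germ cell genes with a row, 1 was tested, DDX4, an RNA helicase of germ cells, and it was not called against any group (0.80 against CD45-/EpCAM+, limma adjusted p = 0.062). After scaling to a common total DDX4 was called higher against CD45-/EpCAM+ (1.09, limma adjusted p = 0.0182) and CD45-/EpCAM- (1.23, limma adjusted p = 0.0273).

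Several relatives of SALL4 and LIN28A were higher in liver. Against CD45-/EpCAM+, 0 of the 7 tested genes of that list were called higher and 4 lower, with a median log2 fold change of -1.86. The counts were 0 and 3 against CD45-/EpCAM-, 0 and 4 against CD45+, and 1 and 3 against both CD31+ and CD146+. After scaling to a common total 1, 2, 1, 1 and 1 were called higher against CD45-/EpCAM+, CD45-/EpCAM-, CD45+, CD31+ and CD146+. IGF2BP2 of this list went the other way, at 1110 to 1963 normalized counts in pBTSCs, 688 to 1260 in CD45-/EpCAM+ and 704 to 769 in CD31+. SALL1, a zinc finger factor of kidney development, ran from 10.6 to 38.9 normalized counts in pBTSCs and from 216 to 678 in the 15 liver libraries, without overlap (log2 fold change -4.02, limma adjusted p = 2.3e-07). LIN28B, the second LIN28 gene and likewise a block on let-7, ran from 12.6 to 26.1 in pBTSCs and from 90.8 to 381 in the liver libraries, without overlap (log2 fold change -3.39, limma adjusted p = 1.6e-05). The 12.6 of LIN28B is 1 read in S15, and SALL1 in S15, at no more than 38.9, lay near the 37.7 that 3 reads are worth there. The absence of overlap therefore holds for the 17 deeper libraries. So while LIN28A had no read, LIN28B was present in every liver library. TRIM71, a stem cell protein whose transcript is a let-7 target, was lower in pBTSCs by 2.88 on the log2 scale (log2 fold change -2.88, limma adjusted p = 0.0062), and IGF2BP3, an RNA-binding protein of fetal tissue, by 1.86 (log2 fold change -1.86, limma adjusted p = 3.6e-06). TRIM71 was rare, with 372 reads over all libraries, and was above 3 reads in 14 of 20. SALL1, LIN28B and IGF2BP3 were called lower in all 5 comparisons, except that IGF2BP3 was not called against CD146+ without the 3 shallow libraries (log2 fold change -0.95, limma adjusted p = 0.0976) or after scaling to a common total (-0.92, under the fold threshold). SALL1 and LIN28B kept both call and direction after scaling to a common total. All 10 hepatocyte markers were called lower in pBTSCs in the same comparison, and their part in these values was not tested.

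**Figure D4:**
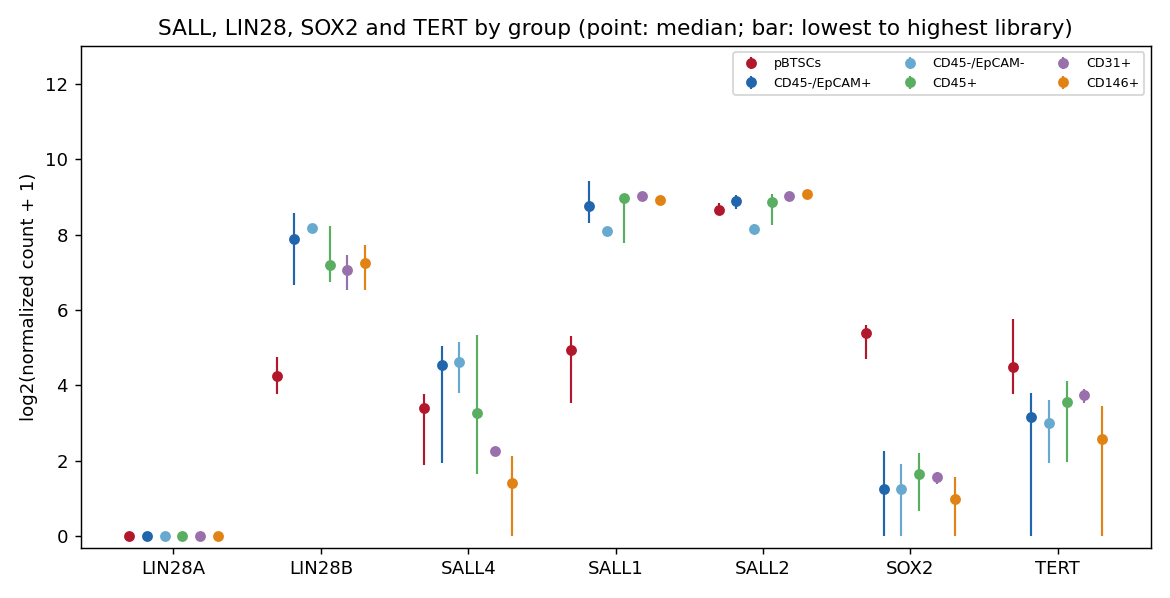
Level of the LIN28 and SALL genes, SOX2 and TERT in each group as log2(normalized count + 1), with the median as a point and the lowest to highest library as a bar, where heights compare groups within a gene and not genes, since gene lengths were not used. Among the 17 deeper libraries SALL1 and LIN28B are lower and SOX2 higher in pBTSCs without overlap with liver, and LIN28A is at 0 in all 20 libraries.

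Most Polycomb partners of BMI1 were not called between pBTSCs and CD45-/EpCAM+ cells, which leaves room for differences under 2-fold. Of 20 tested, 1 was called higher and 0 lower, against 14.8% and 10.3% of all genes. Their median log2 fold change was 0.27. The called gene was CBX6, a chromobox reader of Polycomb marks, at 4694 to 5293 normalized counts in pBTSCs and 1435 to 2439 in CD45-/EpCAM+ (log2 fold change 1.52, limma adjusted p = 2.6e-07). RING1 (0.28) and RNF2 (-0.06), the ubiquitin ligases that BMI1 activates, and EZH2 (-0.20), the methyltransferase of the other Polycomb complex, were not called there, and the adjusted p-values from limma were 0.157, 0.868 and 0.575. EZH2 was lower in pBTSCs than in CD45-/EpCAM- cells (log2 fold change -1.27, limma adjusted p = 0.0041), but was not called after scaling to a common total (-0.79, limma adjusted p = 0.0904). The counts were 5 higher and 1 lower against CD45-/EpCAM-, 2 and 0 against CD45+, 1 and 0 against CD31+ and 2 and 0 against CD146+. CBX8 and CDKN2B, both called only against CD146+, stood at 0.13 and 0.86 there without the 3 shallow libraries (limma adjusted p = 0.863 and 0.460). Of 10 tested adult epithelial stem cell genes 3 were called higher and 0 lower against CD45-/EpCAM+ (median log2 fold change 0.47), namely TERT, PROM1 (1.61, limma adjusted p = 8.3e-04), which encodes the CD133 antigen, and LRIG1 (1.66, limma adjusted p = 7.2e-04), a brake on growth factor receptors in stem cells. Against CD45-/EpCAM-, CD45+, CD31+ and CD146+ the numbers called higher were 4, 1, 0 and 1 of 10, with 0 lower in each.

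Immediate early genes, which respond within minutes to growth factors and to tissue dissociation and among which MYC is often counted, were in part higher in pBTSCs. Against CD45-/EpCAM+, 5 of 16 tested, which include KLF2 and KLF6, were called higher and 0 lower, with a median log2 fold change of 0.81. EGR3, a zinc finger factor of this response, ran from 525 to 853 normalized counts in pBTSCs and from 28.1 to 165 in CD45-/EpCAM+ (log2 fold change 2.74, limma adjusted p = 2.8e-04). The 28.1 is that of shallow S13, where 1 read is worth 25.7, so it tells little. EGR2 (1.38), JUNB (1.26), NR4A1 (1.21) and IER2 (1.18) were also called, with adjusted p-values from limma of 0.0010, 6.5e-05, 0.0028 and 7.2e-05, while FOS stood at 0.93 and EGR1 at 0.78 (limma adjusted p = 0.0114 and 0.0565). Without the 3 shallow libraries 6 of 16 were called higher, with EGR2 lost (0.94) and FOS (1.14) and KLF2 (1.04) gained. Against CD45-/EpCAM- 13 of 16 were called higher, and against CD45+, CD31+ and CD146+ the counts were 1, 1 and 0. After scaling to a common total they were 9, 14, 3, 5 and 6 of 16 against CD45-/EpCAM+, CD45-/EpCAM-, CD45+, CD31+ and CD146+. With that scaling 3308, 4643, 2434, 1624 and 3150 of all 15621 genes were called higher, in the same order.

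**Figure D5:**
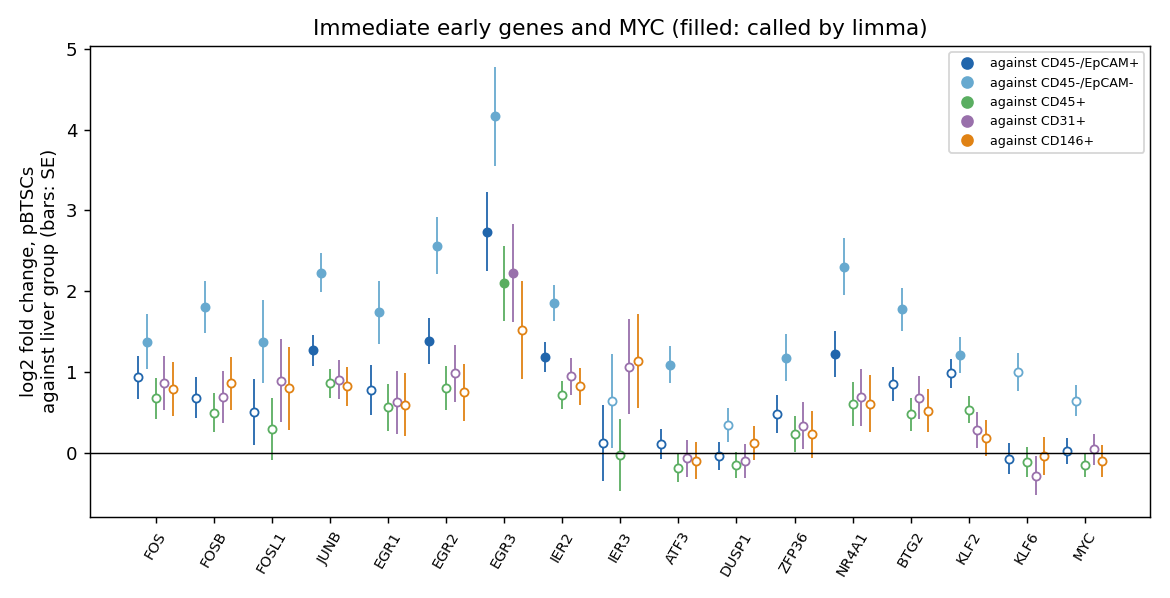
Log2 fold change in pBTSCs against each of the 5 liver groups (y axis) for 16 immediate early genes and MYC, with standard errors as bars and filled points for genes called by limma. Against CD45-/EpCAM- 13 of the 16 are filled, and EGR3 lies highest at 4.16, while MYC has no filled point.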

How the data were processed

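Each library was assigned to its group by the cell type in the labels. The values deposited are normalized counts per gene (a signal at or above 0) for 25764 genes, of which 7782 have no name. Per the labels, RNA was extracted with Qiagen RNeasy, libraries were made with the Illumina TruSeq Stranded mRNA kit, and the submitters' processing notes name STAR, Salmon and DESeq2. Roles, versions, genome build and annotation are not given in the sources used here, so no coordinates are printed.

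The value of 1 read in a library was estimated from its most frequent low values. Between 60.4% and 84.2% of low values (up to 10 reads) were within 0.05 of a whole number of reads, so reads were not rebuilt and count models were not run. Genes that reached 10 normalized counts in 2 or more libraries were tested with limma 3.58.1 in R 4.3.3 (eBayes with trend, all 6 groups in 1 fit) on log2(normalized count + 1). The added 1 understates fold changes of low genes. Members were also compared by exact permutation tests (scipy 1.17.1, under Python 3.11.15, with pandas 2.3.3 and numpy 2.4.6), and figures drawn with matplotlib 3.10.9. On simulated data for pBTSCs against CD45-/EpCAM+ with 200 of 15240 genes changed 4-fold, 78.5% were called and 2.48% of the calls were false, and with no gene changed 0 of 15232 were called. The simulated libraries had the same spread setting for all genes and no differences by storage range or donor. These rates therefore need not hold for the real libraries.

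The members, lists, tests and named-gene rule were chosen with earlier results of these data known. Named were the members, up to 4 called genes with the largest change against CD45-/EpCAM+ from each list, 14 fixed partners (of which CDKN2A and JUN had no row), and the 3 genes most like each tested member. KLF1, IER2, CBX8, CDKN2B, AFP, DDX4 and the untested genes at 0 were named after their values were seen. The fits with libraries scaled to a common total were applied to the lists after seeing the data. Replicate libraries were compared before averaging, and the closest pair of libraries over 2000000 reads differed by 3.40 times counting noise. The alternatives were other added constants, scalings, filters, weights, fits and covariates, and each library left out in turn.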

Additional observations from a re-analysis of the deposited data

Results flagged for a closer look

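NANOG in CD45-/EpCAM+ library S13 stood at 25.7 normalized counts, far above the other 3 libraries of its group. That value is 1 read in a library of 801000 reads. 12 sets of values, by member and group of at least 4 libraries, were screened in this way, and chance alone marks about 1 in 20.

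SALL4 in pBTSCs minus SALL4 in CD45-/EpCAM+ cells was -1.86 on the log2 scale among libraries up to S14 and 1.71 among those from S15 up. The difference between the 2 ranges was not tested. The later range holds 1 CD45-/EpCAM+ library, and S13 and S15 hold 1 read of SALL4 each.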

How the results depend on the processing

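Read depth limits NANOG, SALL4 and LIN28A, and groups of 2 libraries limit the comparisons with CD45-/EpCAM-, CD31+ and CD146+. With no fold threshold, 6029 genes passed against CD45-/EpCAM+ and 5261 against CD45+. Array weights gave 3804 against CD31+ and 1683 against CD146+, and leaving out the libraries under 2000000 reads gave 1554 against CD146+. Among the liver groups 9 genes differed with pBTSCs out of the fit and 70 with the storage range as a covariate, against 776. Leaving out each library in turn, the counts ran from 3611 to 4338 against CD45-/EpCAM+, 3390 (without S5) to 6029 against CD45-/EpCAM-, 2900 to 3430 against CD45+, 1018 (without S21) to 2511 against CD31+ and 1152 (without S22) to 4587 against CD146+. Among the liver groups they ran from 0 (limma without S5, with 1663 at an unadjusted p under 0.05) to 2771 (without S17), with 1544, 1270, 1207 and 409 without S19, S14, S12 and S16. The causes were not tested. The exact tests called 0 members in every run, with 2 of 8 at an unadjusted p under 0.05, both KLF5, in the main one.

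KLF5 was higher in pBTSCs in every run. It lost its call against CD31+ without S21 (1.68, limma adjusted p = 0.116) and against CD146+ without the libraries under 2000000 reads (1.81, limma adjusted p = 0.0712), with array weights (2.55, limma adjusted p = 0.0518) and without S22 (1.87, limma adjusted p = 0.0526). MYC gained a call against CD45-/EpCAM- after scaling to a common total (1.12) and among the liver groups without S7 (adjusted p = 0.0449), and SALL4 against CD146+ with 0.1 added (3.75). Differences that were not called changed sign in some runs. After scaling to a common total MYC stood at 0.093 against CD45+ and 0.18 against CD146+. With the storage range (up to S14 or later) as a covariate MYC stood at -0.084 against CD31+ and NANOG at -0.64 against CD146+. Without the libraries under 2000000 reads NANOG stood at 0.18 against CD45-/EpCAM+. Leaving out each library in turn, MYC ran from -0.12 to 0.080 against CD45-/EpCAM+, -0.10 to 0.15 against CD31+ and -0.24 to 0.0071 against CD146+, NANOG from -1.77 to 0.10 (without S14) against CD45-/EpCAM- and -0.50 (without S22) to 1.37 against CD146+, and SALL4 from -0.75 to 0.17 against CD45+. With a floor of 10 reads 4 libraries held NANOG, against 11 at 3 reads. No paired analysis was possible because the labels give no number that libraries of different groups share.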

Other observations

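The genes whose levels most resembled each member were found among 13224 named genes over the 17 libraries above 2000000 reads, on log2(normalized count + 1). The libraries share the division into pBTSCs and liver and the storage ranges, so these correlations are a description. KLF5 was most like PCBP4 (Pearson's r 0.945), ADRA2A (0.942) and RNF112 (0.938). MYC was most like GADD45B (0.925), ITPKC (0.920) and PXDC1 (0.916). SALL4 was most like ANXA7 (0.928), ANKRD29 (0.921) and NOB1 (0.909).

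NANOG was most like ICAM1 (0.846), VCAM1 (0.818) and TNFAIP3 (0.802), all known as genes that inflammatory signals induce. ICAM1 stood at 6062, 6221 and 5179 normalized counts in S12, S13 and S14, which came from 3 different liver sorts, and at 1633 to 3984 in the other 17 libraries. VCAM1 stood at 4232, 4319 and 3220, of which the S14 value lay within the 1320 to 3355 of the other 17 libraries. TNFAIP3 stood at 5213, 6392 and 4945 in S12, S13 and S14 and at 2187 to 4301 in the others. NANOG had 24, 1 and 14 reads in S12, S13 and S14, and these libraries were singled out after their values were seen.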
